A study of Mus musculus with 5 samples.

Results

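The EGR factors, their NAB corepressors and the immediate early response (IER) genes were followed in mouse B9 cells through 7 genes: Egr1, Egr3, Ier2, Ier3, Ier5, Nab1 and Nab2. Every probe set annotated to 1 of these symbols alone was taken, which gave 12 of the 45101 probe sets on the array and 7 of 18193 genes. Ier5 and Nab1 had 3 probe sets each, Egr3 had 2 and the other genes 1. All 12 reached the signal required for testing, as 19755 probe sets did.

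B9 is a cell line from a mouse cutaneous squamous cell carcinoma with the genotype HRAS-Q61L, an activating change in a RAS protein, which all groups shared. The groups were vemurafenib (PLX4032) at 1 µM on 2 arrays, PLX7904 at 1 µM on 2 arrays, and the vehicle, given as 0.2% DMSO, on 1 array, each after 17 h. The compounds were added as 2.4 µL of stock to 12 mL of medium, or 0.02% of the volume, and the labels do not say whether treated and control dishes held the same amount of vehicle, so compound and amount of vehicle cannot be told apart in the differences from DMSO. Vemurafenib blocks mutant BRAF but can raise ERK signalling where RAS is active, and PLX7904 was designed to avoid that effect. The arrays are labelled biological replicates of 1 line with nothing on separate cultures, so a p-value here reflects array-to-array spread, which may be technical. DMSO had a single array, assumed to vary like the treated ones, and every value relative to DMSO depends on that array.

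Immediate early genes are transcribed within minutes of a growth signal without new protein synthesis, largely because ERK activates ternary complex factors that sit with serum response factor (SRF) on their promoters. EGR proteins are zinc finger transcription factors that bind GC-rich sites, and NAB1 and NAB2 dock onto EGR proteins and repress their targets. NAB2 is itself an EGR target, which closes a feedback loop. IER2, IER3 and IER5 are proteins named for their rapid induction.

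All 10 epithelial and keratinocyte markers passed the filter on signal. Of the markers of other cell types, 1 of 5 for fibroblasts (Pdgfra), 1 of 4 for endothelium (Pecam1), 2 of 5 for immune cells (Cd68 and Csf1r) and 0 of 4 for melanocytes passed it. Pecam1 had a mean of 48.4 against the filter of 47.4. It read 82.6 with DMSO, 6.15 and 35.8 with vemurafenib and 9.27 and 74.0 with PLX7904. Of the epithelial list 4 of 10 rose with vemurafenib over DMSO and 0 fell, namely the keratins Krt8 and Krt18, the integrin Itga6 and the adhesion molecule Epcam. Over all probe sets tested, at the same adjustment, 3.74% rose and 3.41% fell. In a separate fit of 1 probe set per gene, adjusted over those genes alone, 589 of all 10852 genes rose and 565 fell. Against PLX7904 the same 4 rose and Krt5 fell (log2 -0.23), where 4.63% of all probe sets rose and 4.54% fell. In the separate fit 698 of all genes rose and 745 fell. Krt14, Krt6a, Krt18 and Itga6 lie among the brightest 2% of probe sets tested, whose median log2 difference between vemurafenib and DMSO was 0.16. The summed epithelial signal was 145532 to 146659 with vemurafenib, 130097 to 132551 with PLX7904 and 124346 with DMSO. The summed fibroblast signal was 328 to 367 with vemurafenib, 184 to 196 with PLX7904 and 155 with DMSO. Pdgfra, the 1 gene tested in that list, rose (2.89-fold over DMSO, limma adjusted p = 0.00539, and 1.81-fold over PLX7904, adjusted p = 0.0227). It read 264 and 231 with vemurafenib, 138 and 132 with PLX7904 and 83.3 with DMSO, which is most of that sum. The other sums were far lower than the epithelial one. The endothelial sum was 48.5 to 126 with vemurafenib, 84.4 to 203 with PLX7904 and 181 with DMSO. The immune sum was 254 to 273 with vemurafenib, 240 to 257 with PLX7904 and 239 with DMSO. The melanocyte sum was 47.6 to 71.8 with vemurafenib, 55.7 to 112 with PLX7904 and 37.8 with DMSO. None of the tested endothelial and immune markers reached an adjusted p under 0.05 in any comparison. The part of these markers in the results below was not tested. In a culture, more cells with a transcript and more RNA per cell cannot be told apart.

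With vemurafenib 3 of the 12 probe sets rose over DMSO and 0 fell, where 3.74% of all probe sets tested rose, 3.41% fell and 7.15% were called in either direction. They belonged to Egr1, Egr3 and Ier3. Against PLX7904, 5 of 12 were higher with vemurafenib and 0 lower, where 4.63% of all were higher, 4.54% lower and 9.17% called. Ier5 joined the same 3 genes here, with 2 of its probe sets. Between PLX7904 and DMSO limma called 0 of the 12 and 0% of all probe sets, with 1190 of 19755 at an unadjusted p under 0.05. The median log2 difference of the members from DMSO was 0.19 with vemurafenib and -0.02 with PLX7904, and between the compounds it was 0.23. Over all probe sets tested these medians were -0.07, -0.02 and -0.04.

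**Figure D1:**
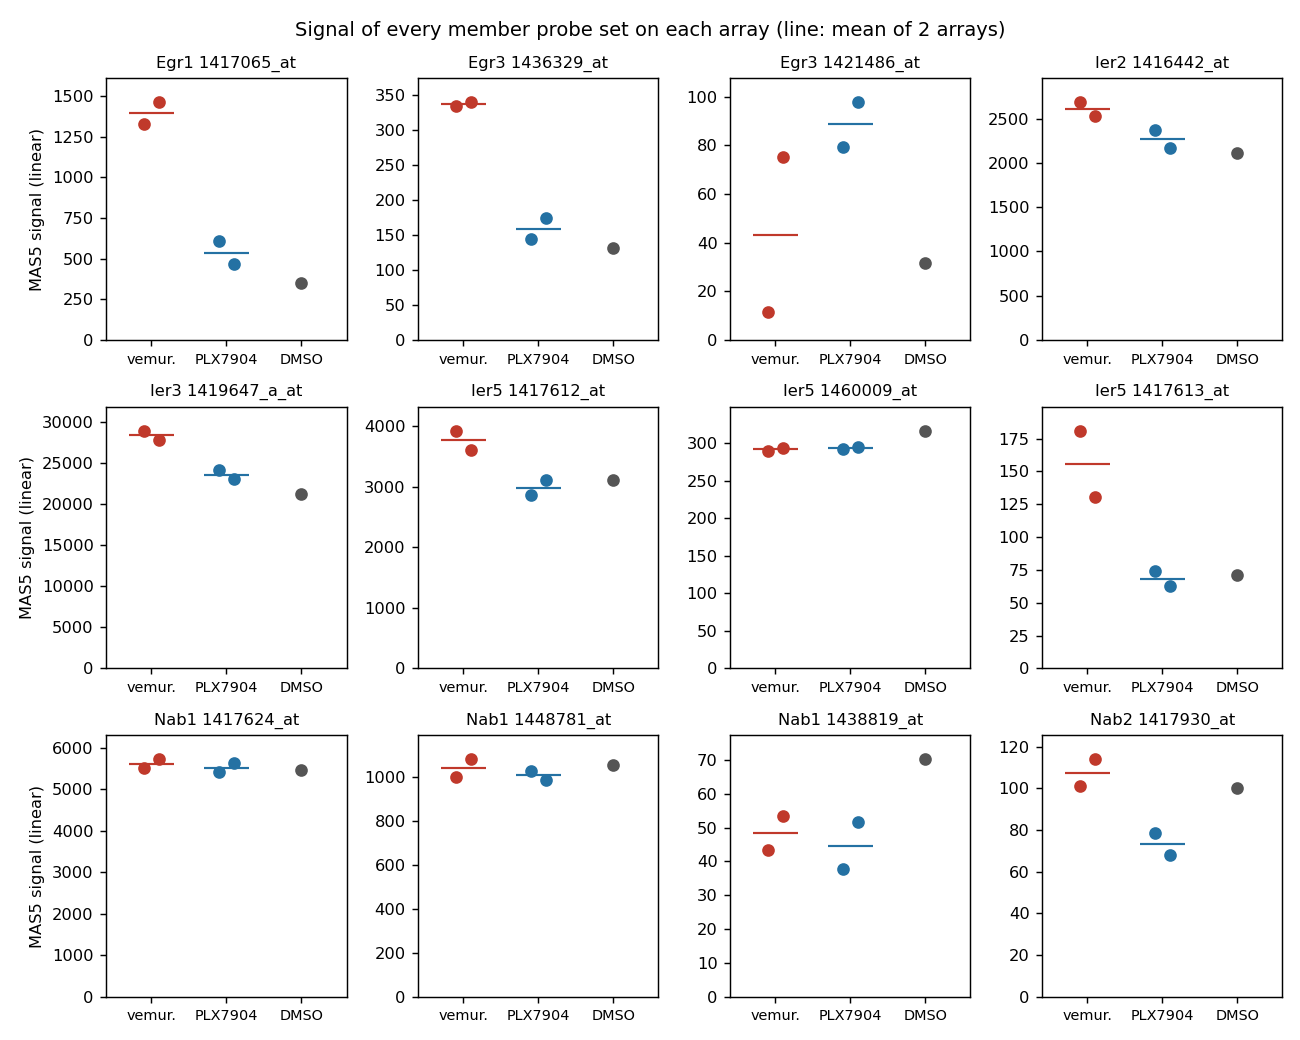
MAS5 signal on a linear scale (vertical axes, each from 0) of the 12 member probe sets on the 2 vemurafenib, 2 PLX7904 and 1 DMSO arrays. Points are arrays and lines are means of 2 arrays. In 7 panels both vemurafenib points lie above the other 3.

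Egr1, the prototype EGR factor, had signals of 1327 and 1462 with vemurafenib, 607 and 464 with PLX7904 and 348 with DMSO. The groups did not overlap, and the order was vemurafenib, PLX7904, DMSO. Means were 1395 ± 95.3 with vemurafenib and 535 ± 101 with PLX7904 (SD, n = 2 each). Egr1 was 3.97-fold higher with vemurafenib than with DMSO (95% interval 3.06 to 5.16, adjusted p = 2.16e-04), and only 17 of the 19755 probe sets had a larger rise. Vemurafenib gave 2.62-fold the signal of PLX7904 (2.11 to 3.24, adjusted p = 4.39e-04). PLX7904 gave 1.52-fold the DMSO signal (1.17 to 1.97), a difference that did not pass (adjusted p = 0.585), so that these neighbours in the order were not separated.

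Egr3, a second EGR factor that shares the DNA site of Egr1, was read by 2 probe sets that disagreed. The brighter, 1436329_at, had 334 and 339 with vemurafenib, 143 and 174 with PLX7904 and 132 with DMSO. Both vemurafenib arrays lay above the other 3, and the PLX7904 arrays lay just above DMSO. It was 2.52-fold higher with vemurafenib than with DMSO (95% interval 1.81 to 3.51, adjusted p = 0.00647) and 2.11-fold higher than with PLX7904 (1.61 to 2.76, adjusted p = 0.0053). PLX7904 and DMSO differed 1.2-fold (0.861 to 1.66, adjusted p = 0.927).

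The dimmer Egr3 probe set, 1421486_at, had 11.4 and 75.05 with vemurafenib, 79.5 and 97.8 with PLX7904 and 31.7 with DMSO. Its vemurafenib arrays stood 1 below and 1 above DMSO, and both lay under the PLX7904 arrays. It reached the filter on signal only through PLX7904, where it averaged 88.7, against 43.2 with vemurafenib. The interval against DMSO ran from 0.269-fold to 3.5-fold, which covers the change of the brighter probe set, and against PLX7904 from 0.13-fold to 1.06-fold, which does not. When both were averaged, the Egr3 difference from DMSO was 0.65 on the log2 scale and no longer passed (adjusted p = 0.508), and that from PLX7904 was -0.18 (adjusted p = 0.838).

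The remaining EGR factors stayed under the filter and were not tested. The brighter Egr2 probe set read 38.9 and 26.4 with vemurafenib, 33.2 and 52.3 with PLX7904 and 25.8 with DMSO. Egr4 read 32.1 and 28.5 with vemurafenib, 50.7 and 31.3 with PLX7904 and 57.6 with DMSO. In both genes the vemurafenib and PLX7904 arrays overlapped or nearly met, at signals near the array medians of 44.1 to 51.9.

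**Figure D2:**
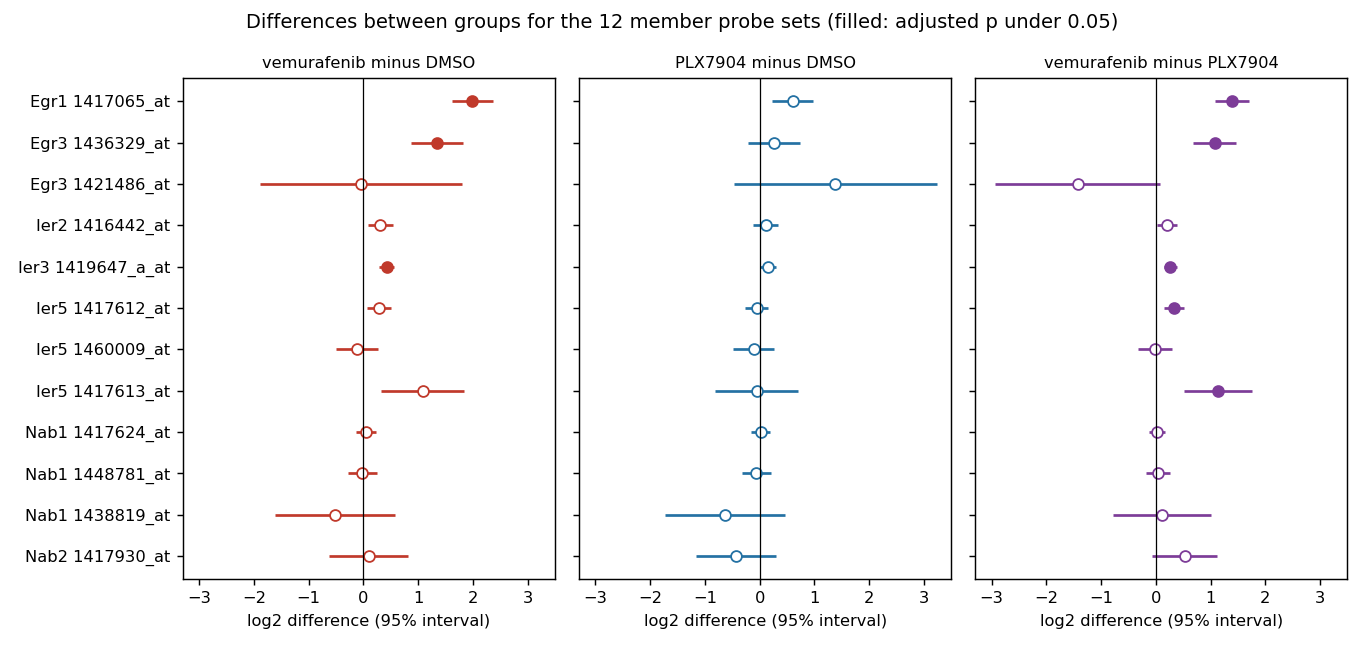
Log2 differences between group means (horizontal axes) with unadjusted 95% intervals for the 12 member probe sets, for each compound minus DMSO and for vemurafenib minus PLX7904. Filled points passed at an adjusted p under 0.05: 3 in the first panel, 0 in the second and 5 in the third.

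Ier3, which encodes a stress-induced regulator of apoptosis and ERK dephosphorylation (IEX-1), rose in small proportion. Its probe set read 28961 and 27863 with vemurafenib, 24173 and 23064 with PLX7904 and 21197 with DMSO. The groups did not overlap and followed the same order as for Egr1. Vemurafenib gave 1.34-fold the DMSO signal (95% interval 1.21 to 1.48, adjusted p = 0.00488) and 1.2-fold the PLX7904 signal (1.11 to 1.304, adjusted p = 0.0122). PLX7904 and DMSO differed 1.11-fold (1.01 to 1.23, adjusted p = 0.793).

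Ier3 lies among the brightest 2% of probe sets tested, which as a whole read higher than DMSO, by a median log2 difference of 0.16 with vemurafenib and 0.13 with PLX7904. After quantile normalization, which removes such a shift, Ier3 still passed against DMSO at a log2 difference of 0.23 in place of 0.42 (adjusted p = 0.0182), and after cyclic loess at 0.26 (adjusted p = 0.0197). The difference from PLX7904 no longer passed without the filter on signal (adjusted p = 0.0847) or without vemurafenib replicate 1 (adjusted p = 0.073).

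Ier5, which encodes a nuclear regulator of the heat shock factor HSF1 and of PP2A, was the member whose 3 probe sets gave 3 different pictures. The brightest, 1417612_at, read 3928 and 3613 with vemurafenib, 2864 and 3111 with PLX7904 and 3105 with DMSO. Vemurafenib was 1.26-fold above PLX7904 (95% interval 1.11 to 1.43, adjusted p = 0.029) and 1.21-fold above DMSO, which did not pass (1.04 to 1.41, adjusted p = 0.123). The DMSO array fell between the PLX7904 arrays, and those groups differed 0.961-fold (0.826 to 1.119).

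A dim Ier5 probe set, 1417613_at, read 181 and 131 with vemurafenib, 73.8 and 63.0 with PLX7904 and 71.0 with DMSO. It was 2.2-fold higher with vemurafenib than with PLX7904 (95% interval 1.43 to 3.37, adjusted p = 0.0316) and 2.11-fold higher than with DMSO, short of the threshold (1.25 to 3.57, adjusted p = 0.0899). The last, 1460009_at, was flat: 290 and 294 with vemurafenib, 292 and 296 with PLX7904 and 317 with DMSO, a 0.994-fold ratio between the compounds (0.803 to 1.23). Its interval leaves out the 1.26-fold and 2.2-fold values of the other probe sets between the compounds. It overlaps the interval of 1417612_at (1.11 to 1.43) but not that of 1417613_at (1.43 to 3.37). Differences between probe sets were not tested. Both Ier5 calls ended with no filter (adjusted p = 0.0623 and 0.104), without vemurafenib replicate 1 (0.18 and 0.205) and without PLX7904 replicate 1 (0.0907 and 0.0663), and that of 1417613_at also without PLX7904 replicate 2 (0.119). The mean of the 3 probe sets missed the threshold as well (log2 0.49, adjusted p = 0.051).

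Ier2, a nuclear protein induced with the EGR genes, read 2687 and 2537 with vemurafenib, 2375 and 2174 with PLX7904 and 2108 with DMSO. The order was again vemurafenib, PLX7904, DMSO with no overlap, but no step passed. Vemurafenib was 1.24-fold above DMSO (95% interval 1.06 to 1.45, adjusted p = 0.103) and 1.15-fold above PLX7904 (1.01 to 1.31, adjusted p = 0.174). Centring each array on its median raised every vemurafenib difference from DMSO by 0.18 on the log2 scale, and the differences from DMSO of Ier2 (adjusted p = 0.0423) and of both Ier5 probe sets (0.0361 and 0.0477) then passed. Ier5l, the nearest relative of Ier5, did not follow these genes, with 483 and 442 for vemurafenib, 611 and 605 for PLX7904 and 490 for DMSO. Its ratio of vemurafenib to PLX7904 was 0.761-fold (adjusted p = 0.0648).

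RefSeq start regions (GRCm38.p6) were matched for 4 of the 7 genes: Ier3, Ier5, Nab1 and Nab2. The 250 bases before the start of Ier3 and Ier5 are shown, as the matched members with a call in some comparison (Ier3 against DMSO and PLX7904, Ier5 against PLX7904 alone), with the letters TATAA in capitals. In Ier3 these letters begin 58 bases and in Ier5 26 bases before the start. Ier3 is at chr17:35821463-35821712 on the plus strand and Ier5 at chr1:155099637-155099886 on the minus strand.
Ier3: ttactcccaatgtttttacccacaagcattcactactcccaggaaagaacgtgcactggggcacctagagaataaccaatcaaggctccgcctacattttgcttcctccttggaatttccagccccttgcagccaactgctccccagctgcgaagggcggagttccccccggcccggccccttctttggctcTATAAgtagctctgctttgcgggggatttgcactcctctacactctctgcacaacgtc
Ier5: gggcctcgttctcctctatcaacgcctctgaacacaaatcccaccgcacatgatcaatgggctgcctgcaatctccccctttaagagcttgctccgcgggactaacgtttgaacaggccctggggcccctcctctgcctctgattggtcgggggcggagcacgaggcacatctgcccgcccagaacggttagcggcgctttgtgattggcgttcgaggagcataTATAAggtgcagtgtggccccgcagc
TATAA was found, on either strand, in 22.8% of all 32851 such windows. Neither window held the CArG box bound by SRF (1.47% of all windows) or CCGGAA, a longer form of the ETS site (12.0%). This says only that these letters are not in these stretches, and shorter forms of the ETS site were not counted.

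Nab1, the first of the corepressors, passed in no comparison. Its brightest probe set, 1417624_at, read 5505 and 5730 with vemurafenib, 5417 and 5638 with PLX7904 and 5460 with DMSO. The PLX7904 arrays overlapped both other groups, and DMSO lay just below the vemurafenib arrays. The ratio to DMSO was 1.03-fold with vemurafenib (95% interval 0.908 to 1.17) and 1.01-fold with PLX7904 (0.894 to 1.15). A second probe set, 1448781_at, read 997 and 1080 with vemurafenib, 1028 and 987 with PLX7904 and 1054 with DMSO, at 0.985-fold with vemurafenib (0.819 to 1.18). Changes of the size seen for Egr1 and Egr3 lie outside these intervals. A dim probe set, 1438819_at, read 43.3 and 53.4 with vemurafenib, 37.6 and 51.5 with PLX7904 and 70.2 with DMSO. Its interval against DMSO (0.327-fold to 1.49-fold) was wide. It averaged 48.3 with vemurafenib and 44.6 with PLX7904, and its mean of 54.4 passed the filter of 47.4 only through the DMSO array. Its position below DMSO was therefore partly set by the filter.

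The Nab1 start region held the EGR site GCGNGGGCG 3 times. At least 1 match, on either strand, was found in 4.7% of all windows, and the share with several was not counted. The sites are shown in capitals with their flanks, on the minus strand. Site 1 (chr1:52500570-52500599) is read from the opposite strand, and sites 2 (chr1:52500538-52500567) and 3 (chr1:52500467-52500496) from the same strand as the gene.
Nab1 site 1: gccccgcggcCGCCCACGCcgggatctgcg
Nab1 site 2: actcggccgcGCGTGGGCGggagccggagc
Nab1 site 3: gcggggcgggGCGGGGGCGgcggaggtggc
The matches begin 141, 109 and 38 bases before the start used, which lies 264 bases inside the annotated extent of the gene. The windows of Nab2, Ier3 and Ier5 held none. A match is a description of these letters and not evidence of binding.

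Nab2, the corepressor known as an EGR target, was dim, with 101 and 114 for vemurafenib, 78.6 and 68.3 for PLX7904 and 100.2 for DMSO. Both vemurafenib arrays lay above the rest, by less than 1 signal unit over DMSO in the lower case, and both PLX7904 arrays lay below. Vemurafenib was 1.44-fold above PLX7904 (95% interval 0.957 to 2.18, adjusted p = 0.261) and 1.07-fold above DMSO (0.646 to 1.77). The interval against DMSO leaves out the 3.97-fold rise of Egr1.

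Set side by side, 7 of the 12 probe sets, from Egr1, Egr3, Ier2, Ier3, Ier5 (2) and Nab2, had both vemurafenib arrays above all 3 other arrays, as 17.6% of all probe sets tested did. The same 7 had both vemurafenib arrays above both PLX7904 arrays, where the share of all was 22.2%. Only the dim Egr3 probe set had both below, as 31.2% of all did. Both PLX7904 arrays lay above DMSO in 5 of the 12, where 29.8% of all probe sets did. The 5 were Egr1, both Egr3 probe sets, Ier2 and Ier3. The dim Egr3 probe set reached the filter on signal only through PLX7904, so its place in these counts was partly set by the filter.

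**Figure D3:**
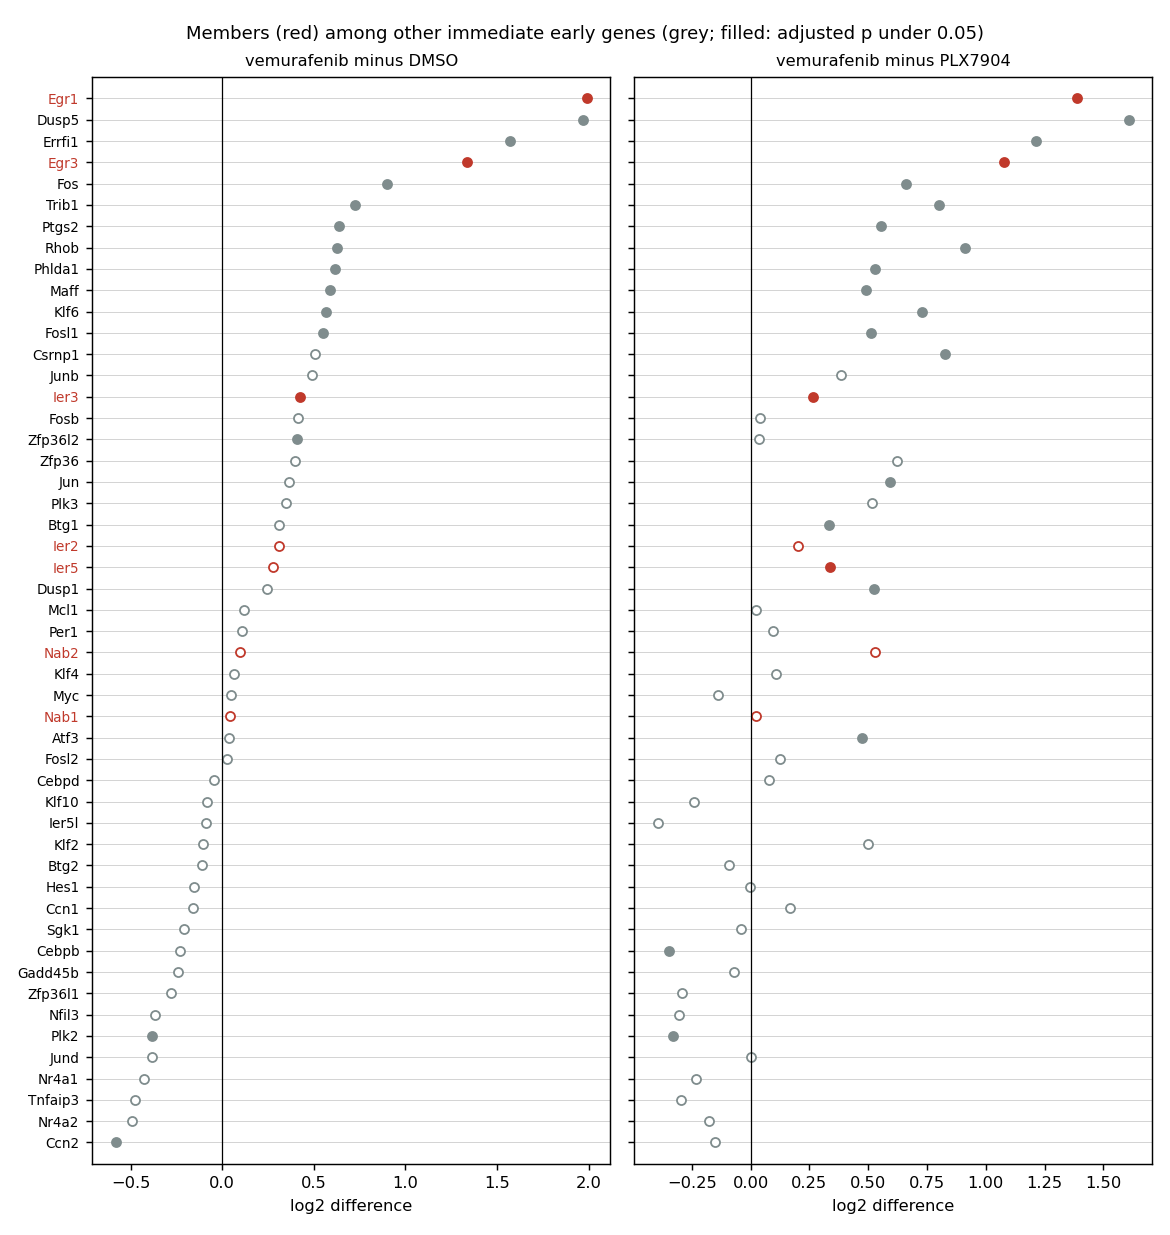
Log2 differences (horizontal axes) for the brightest probe set of the 7 members, in red, and of 43 other immediate early genes, in grey, ordered by vemurafenib minus DMSO. Filled points passed at an adjusted p under 0.05. Egr1 heads the left panel and Egr3 is near the top, while Ier2, Ier5, Nab2 and Nab1 lie lower with open points there.

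Among 48 other immediate early genes, 43 were tested, and 11 rose and 2 fell with vemurafenib relative to DMSO (median log2 difference 0.07). These calls were adjusted over all 19755 probe sets, of which 3.74% rose and 3.41% fell. In the separate fit of 1 probe set per gene, adjusted over those 10852 genes, 589 rose and 565 fell. The largest rises among the called genes were in Dusp5, a nuclear ERK phosphatase (3.92-fold), Errfi1, an inhibitor of the EGF receptor (2.98-fold), Fos, an AP-1 subunit (1.87-fold), and Trib1, a pseudokinase (1.65-fold). Ccn2, a matricellular protein (log2 -0.58), and Plk2, a polo-like kinase (-0.38), fell. Relative to PLX7904, 15 of the 43 rose and 2 fell (median 0.11), where 4.63% of all probe sets rose and 4.54% fell. In the separate fit 698 of the 10852 genes rose and 745 fell. Between PLX7904 and DMSO 0 of 43 passed (median -0.07). Vemurafenib and PLX7904 share the DMSO array in their comparisons with it.

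SRF and its cofactors did not pass in any comparison (0 of 7). Of all probe sets, at the same adjustment, 7.15% were called for vemurafenib against DMSO and 9.17% against PLX7904. In the separate fit of 1 probe set per gene, 1154 and 1443 of 10852 genes were called. In a list of 7 genes, 0 is near those shares. The log2 difference of Srf itself between vemurafenib and DMSO was -0.43 (adjusted p = 0.0966). Of 13 genes described as EGR targets 9 were tested and 4 were not analysed here. With vemurafenib 2 rose over DMSO, Vegfa, an angiogenic factor (1.59-fold), and Cd44, a hyaluronan receptor (1.29-fold). Cd44, at a log2 difference of 0.36, lies like Ier3 among the brightest 2% of probe sets, whose median difference was 0.16. Icam1, an adhesion molecule, fell (log2 -0.89), and the median of the 9 was -0.24. Relative to PLX7904 Vegfa rose (1.45-fold) and Pdgfa, a growth factor, fell (log2 -0.25), and against DMSO PLX7904 changed 0 of 9.

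The genes whose signals ran most like Egr1 over the 5 arrays were Dusp5, Evi2a and the protease gene Mmp10, at root mean square distances of 0.147, 0.184 and 0.195 between log2 profiles centred on their means, among 10852 genes. For Egr3 they were Scin, an actin-severing protein (0.0355), Speer3, of a multigene family whose members may share signal (0.0537), and Cdkn1a, the inhibitor p21 (0.0621). For Ier3 they were the co-chaperone Chordc1 (0.0104), Wfdc2 (0.0238) and the kallikrein Klk10 (0.0239). Small distances are easier to reach for genes that change little, so values are not to be set between members.

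**Figure D4:**
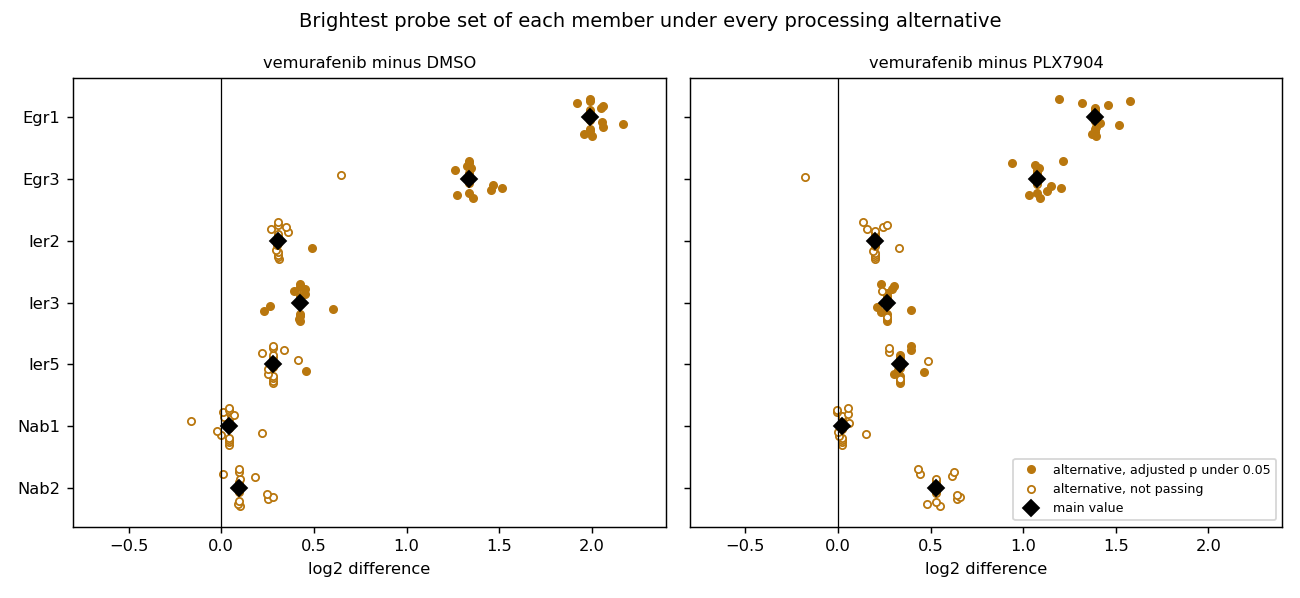
Log2 difference (horizontal axes) of the brightest probe set of each member under the main processing (black diamonds) and every alternative (circles, filled where adjusted p was under 0.05). Egr1 stays between 1.92 and 2.17 against DMSO. The open Egr3 points apart from the rest are the mean of its 2 probe sets, 0.65 against DMSO and -0.18 against PLX7904.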

How the data were processed

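RNA from 5 samples was hybridised to 5 Affymetrix 3' expression arrays. The deposited intensity is 1 linear signal per probe set, made with MAS5 (no version stated) per the submitters' processing notes. The middle 96% of an array's values averaged 500 on each array, which leaves differences that depend on brightness in place. No detection calls were used.

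Of 45101 probe sets, 34945 that are not controls had 1 gene symbol in the platform annotation, 932 several, and 64 were controls. The log2 of the signal plus 3.34, the 10th percentile of all values, was analysed for the 19755 single-symbol probe sets whose mean over the 3 group means reached 47.4, the median of all values. A model of 3 group means over the 5 arrays used limma 3.58.1 (R 4.3.3; eBayes with an intensity trend; 2 residual and 7.82 prior degrees of freedom). Two-sided p-values were adjusted by Benjamini-Hochberg over all 19755 probe sets, and intervals are unadjusted 95% intervals. Calls within the gene lists used this adjustment. Counts over 10852 genes came from a separate fit of the brightest probe set per gene. The fit was tested on simulated arrays with known changes. Figures used Python 3.11.15 and matplotlib 3.10.9.

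The members, gene lists and naming rule were chosen with earlier results of these data known. The rule named every member, Egr2, Egr4 and Ier5l, and, from the lists of other immediate early genes, SRF cofactors and EGR targets, up to 4 called genes at either end by the brightest probe set. For members called against DMSO it also named the 3 genes with the nearest profile. Epithelial, fibroblast, endothelial, immune and melanocyte markers checked the label of the cells. Alternatives covered the pseudocount, the filter, normalization, variance moderation, the choice of probe sets, a replicate block and leaving out each treated array.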

Additional observations from a re-analysis of the deposited data

How the results depend on the processing

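The calls of Egr1, Egr3 and Ier3 needed the intensity trend in limma's variance. With it switched off, 0 probe sets passed in any comparison (3624, 1035 and 3980 at an unadjusted p under 0.05 for vemurafenib against DMSO, PLX7904 against DMSO and vemurafenib against PLX7904), and 0 members. Of 19755 probe sets 1413 were called for vemurafenib against DMSO, 743 of 34945 without the filter and 443 of 10410 genes with the mean of all probe sets. For vemurafenib against PLX7904 the 1812 became 1099 without the filter and 660 with that mean. Leaving out 1 array gave 1391 to 1793 and 1042 to 1903, the lowest without PLX7904 replicate 2. Median centring moved the share of calls that were higher from 52.3% to 84.1% and from 50.5% to 79.0%. For PLX7904 against DMSO the 0 calls became 2 without probe sets of suffix x, s or a and 7 with the replicate block, and 0 to 91 without 1 array (91 and 81 without vemurafenib replicates 1 and 2), with 0 members throughout.

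Members called against DMSO numbered 3, but 6 with median centring, 2 of 7 genes with the mean of all probe sets, 2 of 6 with the filter at the 75th percentile, 2 of 11 without probe sets of suffix x, s or a, and 3 to 4 without 1 array (Ier5 1417613_at added without vemurafenib replicate 2, adjusted p = 0.0454). Against PLX7904 they numbered 5, but 2 without the filter, 3 of 6 with the filter at the 75th percentile, 2 of 7 genes with the mean of all probe sets, and 2 to 6 without 1 array (2 and 3 without vemurafenib and PLX7904 replicate 1). The 6 include the dim Egr3 probe set as lower, which reached the filter only through PLX7904. Replicate 1 deviations from vemurafenib and PLX7904 means correlated at -0.003, but 2 pairs cannot test pairing. A replicate block raised 1413 and 1812 calls to 1895 and 2332 and changed 0 member calls.

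Values that turned sign were Egr3 against PLX7904 with the mean of its probe sets (-0.18), 1421486_at against DMSO without vemurafenib replicate 1 (1.16, and -1.25 without replicate 2), Ier5 1460009_at (0.064) and Nab1 1448781_at (0.16) with median centring, Nab1 with the mean of its probe sets (-0.17 with vemurafenib, -0.23 with PLX7904 against DMSO), and Ier3 for PLX7904 against DMSO after quantile normalization (-0.00156). A further 25 of 573 recomputed member values, none of them called, changed sign by less than 1 SE. In these fits a lone array is assumed to vary like the other groups. The number of arrays limits the precision, and without detection calls the dim probe sets cannot be placed above background. The cause of these changes was not tested.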
